A study of Mus musculus with 77 samples.

Results

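The response to stroke was compared between oligodendrocyte precursor cell (OPC) libraries and endothelial cell (EC) libraries from mouse cerebral white matter. For each gene the quantity was the log2 change from control to stroke in OPC libraries minus the same change in EC libraries. A positive value means that the gene's ratio of stroke to control was larger in OPC libraries, and a negative value that it was larger in EC libraries. The groups were OPC stroke (6 libraries), OPC control (6 libraries), EC stroke (7 libraries) and EC control (5 libraries), 24 of the 77 libraries of the series. All 4 groups share the tissue, and the labels set them apart only as OPC or EC and as stroke or control. The labels do not spell out OPC and EC, which are read here as those cell types. Strain, age, time after the stroke, the way the stroke was made and the way the cells were isolated are absent from these labels, beyond a series title that names focal ischemia. Nothing in the labels says that libraries of a group came from separate animals, so each p-value measures the spread between these libraries, which may be technical. Of 52636 genes in the files, 17816 passed the filter on low counts in both tables and were tested for the difference, beside 18167 tested in the OPC table and 20995 in the EC table.

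Oligodendrocyte precursor cells divide through life and mature into the oligodendrocytes that wrap axons in myelin, and they can also take on immune functions after injury. Endothelial cells line the vessels, form the blood-brain barrier with their tight junctions, and are the first brain cells met by circulating cytokines and leukocytes. Type I and type II interferons signal through receptor-bound kinases to a shared set of antiviral and antigen-presenting genes in nearly every cell type. The promoters of many of these genes carry the interferon-stimulated response element.

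The cell types were checked against marker genes. Summed over 14 endothelial markers, expression was 84.6 to 121 CPM in OPC stroke libraries, 82.6 to 97.3 CPM in OPC controls, 5135 to 7477 CPM in EC stroke libraries and 3316 to 5505 CPM in EC controls, where CPM are counts per 1000000 after scaling by the trimmed mean of M-values (TMM) within each table. The tables were counted and scaled separately, so levels set across them are approximate. Summed over 12 OPC markers it was 11492 to 14309 CPM in OPC stroke libraries, 12724 to 14638 CPM in OPC controls, 247 to 500.2 CPM in EC stroke libraries and 198 to 442 CPM in EC controls. The EC libraries also held mature oligodendrocyte markers at 10850.5 to 20985 CPM after stroke and 9034 to 18270.3 CPM in controls, and neuron markers at 5034 to 6844 CPM after stroke and 7609 to 10293 CPM in controls. The mature oligodendrocyte sum was above the endothelial sum in every EC library. The neuron sum was above it in every EC control and in some EC stroke libraries. Astrocyte markers in EC libraries summed to 3104 to 6943 CPM after stroke and 2719 to 5084 CPM in controls. In OPC libraries the mature oligodendrocyte markers summed to 57549 to 78197 CPM after stroke and 98913 to 113326 CPM in controls, above the OPC markers in every library. In bulk libraries fewer cells of a type and less RNA per cell cannot be told apart.

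**Figure D1:**
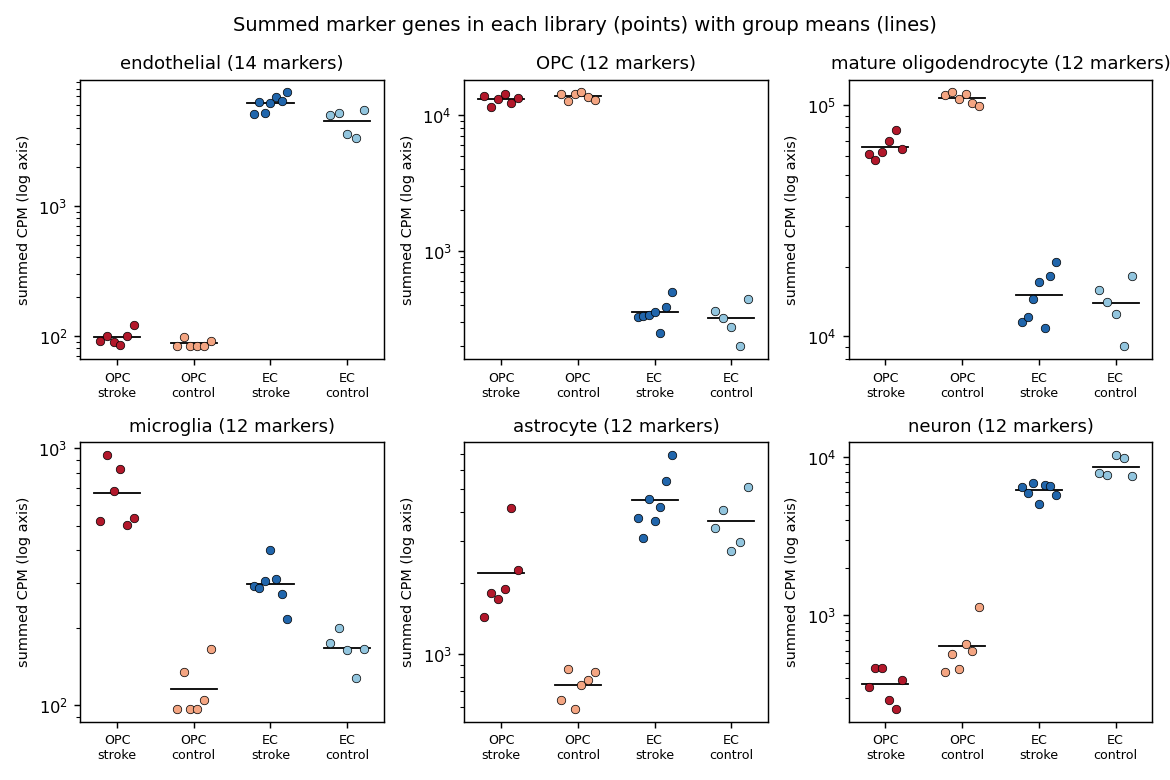
Summed CPM (log axes) of the marker genes of 6 cell types in each of the 24 libraries, with points for libraries and lines for group means; OPC stroke, OPC control, EC stroke and EC control run from left to right. Endothelial markers were highest in EC libraries and OPC markers in OPC libraries, and microglia markers were higher after stroke in both tables without overlap between stroke and control libraries.

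Total counts ran from 54752585 to 71292806 in OPC libraries and from 57569368 to 142944063 in EC libraries. The EC libraries numbered up to 6 (3 stroke and 2 control) had at least 123424129 counts each and those numbered above 6 at most 80697263, so depth split the EC table across both conditions. A further 3 libraries of the OPC table stood apart on marker genes. OPC stroke 8 was the highest OPC library for 12 astrocyte markers, at 4139 CPM, and the lowest OPC stroke library for the 20 interferon response genes, at 626 CPM. OPC control 11 had 250.2 CPM of Ttr, a choroid plexus marker, and OPC control 12 had 1124 CPM of neuron markers, the most of any OPC library. Of 8 neutrophil markers none passed the filter in both tables, and their sum was at most 1.18 CPM in any OPC library and 0.640 CPM in any EC library.

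The response to stroke differed between OPC and EC libraries for 1575 of 17816 genes, or 8.84% (edgeR quasi-likelihood test, Benjamini-Hochberg adjusted p under 0.05, the threshold for a called gene throughout). The difference was higher in OPC for 970 genes (5.44%) and lower in OPC for 605 genes (3.4%). Within OPC libraries 3726 of 18167 genes changed (20.5%), 2133 rising (11.7%) and 1593 falling (8.77%). Within EC libraries 1309 of 20995 genes changed (6.23%), 749 rising (3.57%) and 560 falling (2.67%). These shares of all genes are the background for the list counts below. Lists share some genes, so their counts are not separate observations. The EC count rested on single libraries: it was 138 without EC control 7, 195 without EC control 9, 594 without EC stroke 8 and 748 without EC stroke 10. Within either EC depth class alone it was 0, with 1748 genes at an unadjusted p under 0.05 in the libraries numbered up to 6 and 4156 in those above 6. The count of called differences was 638 with the EC libraries numbered up to 6 and 1502 with those above 6, and below a pair of counts "within the EC depth classes" is given in that order. Of the 68 called genes that the naming rule took, calls were lost within the first class for 15 (Ttr, Gsta4, Cav1, Ocln, Ccne1, Ebp, Sox5, Nkd1, Nrp1, Nr1h3, Bmp4, Tcf7l2, Ldha, Fth1 and Phlda3) and within the second for 8 (Ccnb1, Cdca5, Cdk1, Pimreg, Kif18b, Id3, Ebp and Tnc). Depth class as a covariate gave 1563 called differences. The share of called differences that were higher in OPC was 61.6% with TMM factors computed within each table, and 49.9% (830 of 1663) with TMM factors computed over all 24 libraries together. The median over all tested genes was -0.01 for the difference with factors within each table and -0.069 with factors over all 24 libraries.

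Most called differences were changes in 1 table with no call in the other. Of the 970 higher differences, 534 were genes that rose in OPC and were not called in EC, 243 rose in both, 75 fell in EC and were not called in OPC, 16 rose in OPC and fell in EC, and 102 were called in neither table alone. Of the 605 lower differences, 371 fell in OPC and were not called in EC, 87 rose in EC and were not called in OPC, 14 rose in both, 10 fell in OPC and rose in EC, 6 fell in both, and 117 were called in neither table alone. A total of 685 genes were called in both tables, 659 in the same direction (468 rose, 191 fell) and 26 in opposite directions. Among the 659, the size of the change differed for 263, of which 243 were higher in OPC. Over all 17816 genes the OPC and EC changes had a Pearson r of 0.45, and over the 8809 genes with at least 10 CPM in each group r was 0.3; genes are not independent replicates.

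**Figure D2:**
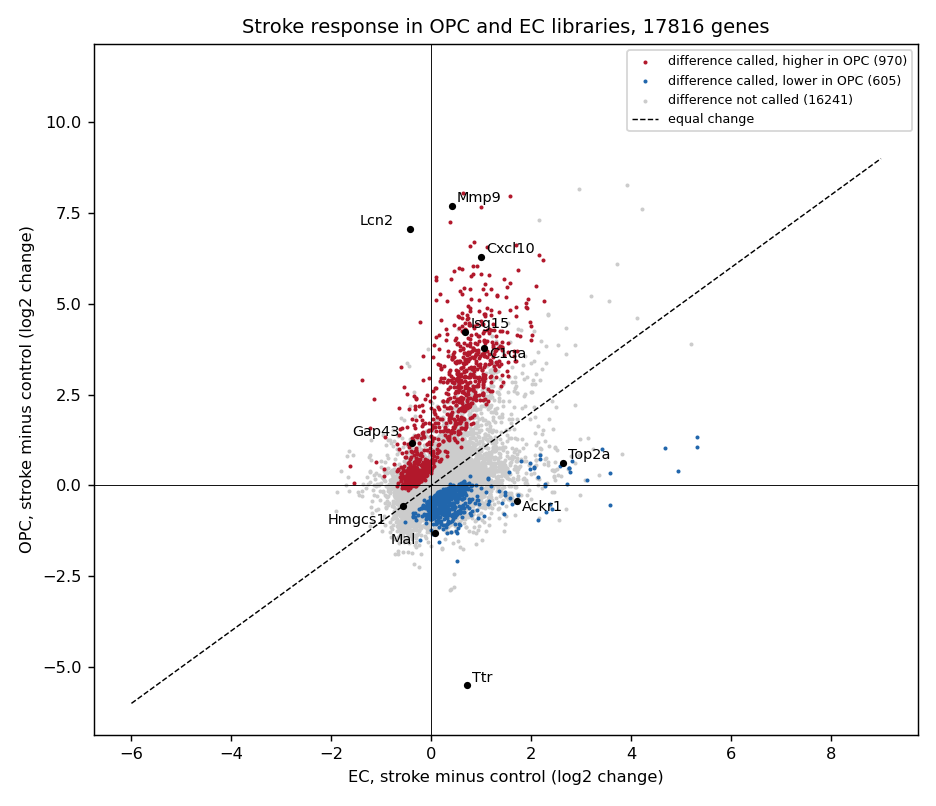
Each point is 1 of the 17816 genes tested in both tables, with the log2 change after stroke in EC libraries on the x axis and in OPC libraries on the y axis. The 970 genes with a difference called higher in OPC lie above the dashed line of equal change, the 605 called lower lie below it, and Hmgcs1 sits on it.

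The log2 scale bears on how these counts read. Of the 970 genes with a higher difference in OPC, 864 (89.1%) had a higher control mean in CPM in EC libraries than in OPC libraries, against 57.9% of all tested genes and 23.8% of the 605 genes with a lower difference. For 207 of the 970 (21.3%) the gain in CPM after stroke was larger in EC libraries although the ratio was larger in OPC libraries. Both scales are therefore given below for the main gene groups.

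Interferon response genes rose in both tables and rose by more in OPC libraries on the log2 scale. All 20 of the listed genes were tested: 20 rose in OPC (11.7% of all genes tested rose), 18 rose in EC (3.57% of all), and for 18 the difference was higher in OPC (5.44% of all), none lower. Their median log2 change was 2.82 in OPC and 0.58 in EC, and the median difference was 2.21, beside -0.01 over all tested genes. Every one of the 20 had the higher control mean in EC libraries, and 14 had the larger gain in CPM in OPC libraries. Ifit1, which binds foreign RNA, differed by 2.56 ± 0.40 (adjusted p = 0.000127, edgeR) and Rsad2, which encodes viperin, by 2.89 ± 0.42 (adjusted p = 6.57e-05). Ifit2 and Stat2 were the members without a called difference, at 0.67 and 0.57. Without OPC stroke 8 all 20 differences were called, and within the EC depth classes 14 and 13 were.

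The promoters of 3 of these genes are shown because each holds a match to that element, from RefSeq (GRCm38.p6), each 250 bases before to 50 after the annotated start, with matches to the response element in capitals. The pattern searched was GAAA, any 2 bases and GAAA again, on either strand, so a match on the other strand starts with TTTC.

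Isg15, chr4:156200769-156201068, minus strand: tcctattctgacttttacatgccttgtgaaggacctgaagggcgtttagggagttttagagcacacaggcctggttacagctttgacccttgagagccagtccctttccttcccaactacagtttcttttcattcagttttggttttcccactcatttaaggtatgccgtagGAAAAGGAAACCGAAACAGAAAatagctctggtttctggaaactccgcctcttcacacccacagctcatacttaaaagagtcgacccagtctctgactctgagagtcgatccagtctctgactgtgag

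Ifit1, chr19:34640639-34640938, plus strand: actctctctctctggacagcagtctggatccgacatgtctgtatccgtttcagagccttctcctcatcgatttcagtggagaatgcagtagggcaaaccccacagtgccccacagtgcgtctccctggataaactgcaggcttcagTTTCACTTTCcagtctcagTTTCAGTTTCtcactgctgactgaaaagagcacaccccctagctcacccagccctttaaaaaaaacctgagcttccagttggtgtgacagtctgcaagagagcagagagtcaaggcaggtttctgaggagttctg

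Rsad2, chr12:26456403-26456702, minus strand: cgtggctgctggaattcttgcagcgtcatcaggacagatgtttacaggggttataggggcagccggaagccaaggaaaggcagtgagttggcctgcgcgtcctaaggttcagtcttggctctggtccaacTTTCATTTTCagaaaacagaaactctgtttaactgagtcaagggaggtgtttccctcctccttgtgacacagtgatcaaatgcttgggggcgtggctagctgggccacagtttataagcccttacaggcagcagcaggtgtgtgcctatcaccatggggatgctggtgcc

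Of the 15 interferon response genes with a promoter window in the RefSeq table, 10 (66.7%) held this pattern, against 3.99% of all 27025 genes with a window. The share was 3.77% of the 12202 tested genes with a window, 11.3% of the 707 with a higher difference and 3.27% of the 459 with a lower difference. A match describes letters in the window and not a bound site. Overlapping matches were joined in 1 run of capitals.

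Isg15 (ENSMUSG00000035692, chr4:156199424-156200818) encodes a ubiquitin-like protein that is attached to other proteins during antiviral responses. Its lowest, median and highest values in OPC libraries were 6.69, 37.7 and 50.1 CPM after stroke, against 0.962, 1.54 and 3.35 CPM in controls. In EC libraries they were 108, 146 and 164 CPM after stroke, and the 5 EC controls had 98.2, 90.1, 72.6, 87.4 and 78.2 CPM. Stroke and control libraries did not overlap in either table, and every EC control was above every OPC stroke library. The log2 change was 4.24 in OPC and 0.69 in EC, and the difference was 3.55 ± 0.44 (standard error, adjusted p = 8.33e-06, edgeR quasi-likelihood test with Benjamini-Hochberg adjustment, as for every adjusted p below). OPC stroke 8 was the lowest of its group, and without it the difference for Isg15 was 3.76. The gain in mean CPM was 32.7 in OPC and 51.9 in EC.

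Ifih1 (ENSMUSG00000026896, chr2:62595798-62646255) encodes MDA5, a sensor of long double-stranded RNA. It had 8.52, 20.6 and 28.1 CPM (lowest, median, highest) in OPC stroke libraries, against 1.76, 2.68 and 3.38 CPM in OPC controls. EC stroke libraries had 33.7, 40.9 and 44.5 CPM and EC controls 35.0, 36.1, 29.7, 34.2 and 24.6 CPM. The OPC groups were apart and the EC groups overlapped. The change passed the test in OPC (2.91) and not in EC (0.33, adjusted p = 0.0794), and the difference of 2.57 ± 0.26 passed it (adjusted p = 1.03e-06). Oas1g, a member of the oligoadenylate synthetase cluster that senses double-stranded RNA, had the difference 5.87 ± 0.61 (adjusted p = 1.42e-06), with means of 5.15 ± 3.10 CPM (SD, n = 6) in OPC stroke libraries and 0.0487 ± 0.0412 CPM (n = 6) in OPC controls. In EC the Oas1g means were 12.2 ± 2.98 CPM (n = 7) after stroke and 6.77 ± 1.45 CPM (n = 5) in controls. Apol9b differed by 5.45 ± 0.66 (adjusted p = 6.27e-06), and its 6 OPC controls together held 7 counts. Both have near-identical neighbours, so how their reads were divided among the copies is uncertain.

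**Figure D3:**
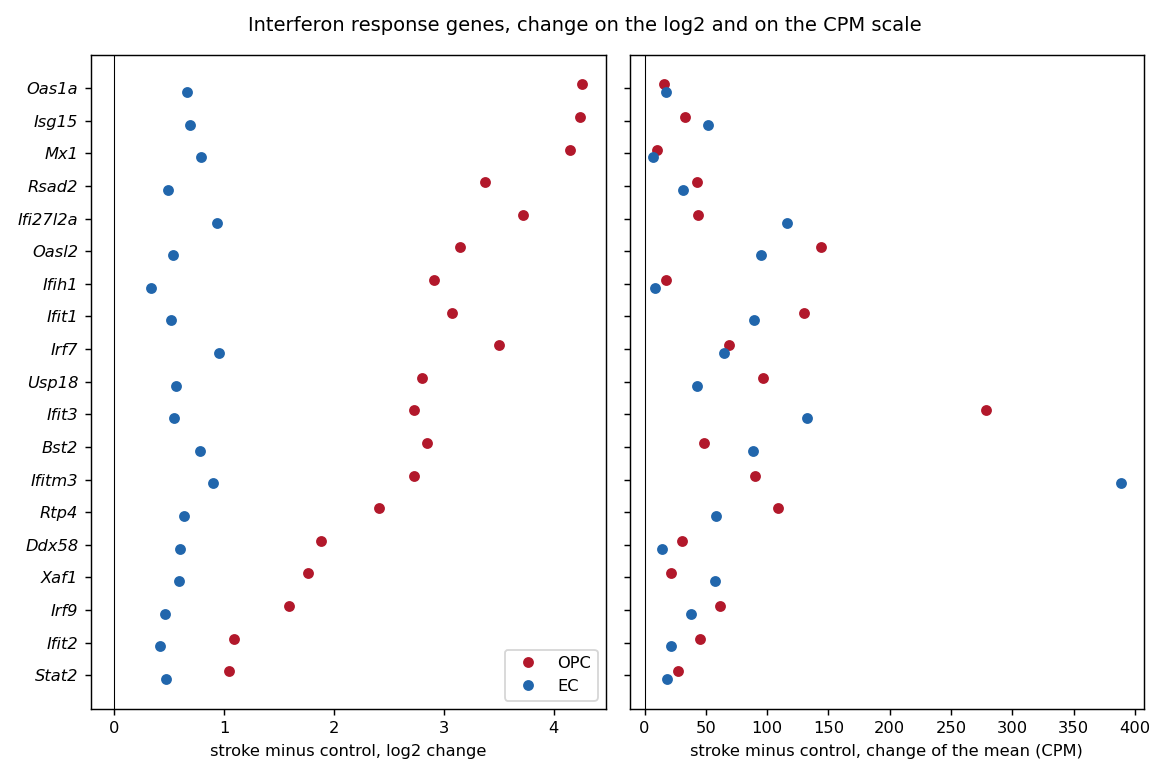
Interferon response genes (19 of the 20 are drawn), with the log2 change from control to stroke in the left panel and the change of the group mean in CPM in the right panel, red for OPC and blue for EC. On the log2 scale the OPC point lies to the right for all 19 drawn, and on the CPM scale for 13.

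A list of genes induced by interferon gamma, mostly GTPases that attack the vacuoles of intracellular parasites, with Ubd and the transcription factors Irf1 and Irf8, also had higher differences in OPC. Of 14 listed genes 13 were tested: 12 rose in OPC and 13 rose in EC. The difference was higher in OPC for 11 (84.6%, beside 5.44% of all genes) and lower for none, with a median of 2.09. The response element was found in 8 of the 10 with a promoter window (80.0%). Irgm1 (ENSMUSG00000046879, chr11:48861968-48871683) had 107, 189 and 280.4 CPM in OPC stroke libraries, against 24.5, 29.8 and 44.1 CPM in OPC controls. It had 156, 209.8 and 273 CPM in EC stroke libraries and 136, 156, 146, 111 and 101 CPM in EC controls. OPC stroke libraries were all above OPC controls, and the EC groups overlapped at their edges. The Irgm1 difference was 1.81 ± 0.26 (adjusted p = 5.42e-05). Gbp7, a guanylate-binding protein with near-identical neighbours, differed by 2.25 ± 0.30 (adjusted p = 2.27e-05), and its level is uncertain for that reason. All 13 controls were higher in EC, and 5 of the 13 had the larger gain in CPM in OPC libraries.

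Antigen presentation genes had a median difference of 1.39. Of 18 tested, 17 rose in OPC and 13 in EC. The difference was higher in OPC for 12 (66.7%, beside 5.44% of all genes) and lower for none. Of the 18, 2 gained more CPM in OPC libraries. Within the EC depth classes 7 and 6 differences were higher, and without OPC control 7 there were 8. Psmb9, a catalytic subunit of the immunoproteasome that trims peptides for MHC class I, had 7.89, 17.9 and 29.0 CPM in OPC stroke libraries, against 1.60, 1.93 and 2.75 CPM in OPC controls. Its values were 69.4, 97.5 and 124 CPM in EC stroke libraries and 78.1, 63.1, 52.3, 48.8 and 51.8 CPM in EC controls. The OPC groups did not overlap and the EC groups did, and the difference was 2.48 ± 0.30 (adjusted p = 7.01e-06). H2-Q4, a nonclassical MHC class I gene, differed by 2.34 ± 0.38 (adjusted p = 0.000164), and reads shared with other MHC class I genes make its level uncertain. The classical MHC class I gene H2-K1 rose in both tables, by 1.20 in OPC and 0.72 in EC, and its difference of 0.48 did not pass the test (adjusted p = 0.178).

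Genes that are typical of microglia rose in OPC libraries, 5 of 12 rose in EC libraries, and most had higher differences in OPC. The 12 microglia markers summed to 503 to 938 CPM in OPC stroke libraries, 96.8 to 166 CPM in OPC controls, 217 to 401 CPM in EC stroke libraries and 128 to 199.7 CPM in EC controls. All 12 rose in OPC and 7 did not pass the test in EC. The difference was higher in OPC for 10 (83.3%, beside 5.44% of all genes) and lower for none, with a median of 2.03. All 12 had counts in each of the 4 groups, and P2ry12 and Sall1 were the members without a called difference. Within the EC depth classes 8 and 7 differences were called. The part of these cells in the differences of other immune genes was not tested.

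C1qa (ENSMUSG00000036887, chr4:136895917-136898803) encodes a chain of C1q, the recognition unit of the classical complement pathway, made in the brain mainly by microglia. It had 72.2, 98.9 and 127 CPM in OPC stroke libraries, against 4.72, 6.13 and 11.9 CPM in OPC controls. EC stroke libraries had 44.7, 56.1 and 69.3 CPM and EC controls 27.7, 31.4, 24.5, 17.4 and 32.8 CPM. Stroke and control did not overlap in either table, and the OPC controls were all below the EC controls. C1qa rose 13.9-fold in OPC means and 2.08-fold in EC means, and the difference was 2.74 ± 0.27 (adjusted p = 1.03e-06). C4b, which carries the cascade onward from C1 and is also made by astrocytes and oligodendrocyte lineage cells, had 282, 344 and 411 CPM in OPC stroke libraries, against 18.9, 25.3 and 75.1 CPM in OPC controls. In EC it had 322, 416 and 531 CPM after stroke and 381, 436, 351, 260.2 and 346 CPM in controls, with overlap, and the difference was 3.04 ± 0.34 (adjusted p = 2.54e-06). C1qa is both on the complement list and among the microglia markers. Of 14 complement genes 13 were tested: 11 rose in OPC and 8 rose in EC. The difference was higher in OPC for 8 (61.5%, beside 5.44% of all genes) and lower for none.

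Genes of the disease-associated microglia programme, which accompanies phagocytosis of myelin and lipid, had called differences that were all higher in OPC. Of 21 tested, 17 rose in OPC and 12 in EC, and 12 differences were higher in OPC, none lower (13 and 11 within the EC depth classes). The share higher was 57.1%, beside 5.44% of all genes, and the median difference was 1.51. Cst7, a cysteine protease inhibitor, had 4.85, 9.44 and 14.6 CPM in OPC stroke libraries, against 0.0697, 0.138 and 0.400 CPM in OPC controls. It had 9.77, 14.7 and 19.1 CPM in EC stroke libraries and 7.78, 7.46, 5.49, 3.57 and 8.44 CPM in EC controls. No library of either control group reached its stroke group, and the difference was 4.46 ± 0.47 (adjusted p = 1.42e-06). Ch25h, the enzyme that makes 25-hydroxycholesterol, had 5.53, 6.14 and 11.4 CPM in OPC stroke libraries, against 0, 0.0501 and 0.184 CPM in OPC controls. Its EC values were 27.3, 58.5 and 77.9 CPM after stroke and 25.2, 15.3, 9.50, 18.9 and 15.3 CPM in controls, with no overlap of stroke and control in either table. The Ch25h difference was 4.92 ± 0.53 (adjusted p = 1.74e-06), while its gain in mean CPM was 7.08 in OPC and 37.6 in EC. Gpnmb, a membrane glycoprotein of lipid-laden phagocytes, rose by 2.15 in OPC and 2.06 in EC, and its difference was 0.09 (adjusted p = 0.934); it was chosen after its values were seen. Cybb, the catalytic subunit of the phagocyte NADPH oxidase, had 6.54, 7.09 and 10.1 CPM in OPC stroke libraries, against 0, 0.0573 and 0.228 CPM in OPC controls. EC libraries showed 7.91, 13.3 and 24.2 CPM after stroke and 7.25, 8.01, 6.86, 7.30 and 3.13 CPM in controls, with overlap of stroke and control in EC alone, and the Cybb difference was 5.44 ± 0.55 (adjusted p = 1.03e-06).

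Chemokines and cytokines, which draw leukocytes to the lesion, mostly rose in both tables. Of 20 listed genes 15 were tested: 12 rose and 2 fell in OPC, and 9 rose in EC. For 10 the difference was higher in OPC, none lower (7 and 6 within the EC depth classes). The share higher was 66.7%, beside 5.44% of all genes, and the median difference was 2.02. Cxcl10 (ENSMUSG00000034855, chr5:92346638-92348889), an interferon-induced ligand of CXCR3 on T cells, had 8.52, 32.0 and 52.99 CPM in OPC stroke libraries, against 0.0296, 0.187 and 1.47 CPM in OPC controls. It had 75.2, 103 and 167 CPM in EC stroke libraries and 60.3, 45.6, 44.8, 56.3 and 60.3 CPM in EC controls. The groups did not overlap in either table; OPC stroke 8 was the lowest stroke library and OPC control 12 the highest control. The difference was 5.31 ± 0.59 (adjusted p = 2.54e-06), and 6.30 without OPC control 12. Ccl2, the main ligand of CCR2 on monocytes, had 4.05, 5.92 and 9.83 CPM in OPC stroke libraries, against 0.0872, 0.271 and 0.636 CPM in OPC controls. The EC values were 8.203, 11.7 and 14.4 CPM after stroke and 7.31, 6.17, 4.18, 3.63 and 4.04 CPM in controls, with no overlap of stroke and control in either table, and the difference was 3.17 ± 0.43 (adjusted p = 2.46e-05).

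Lysosomal genes split by member. Of 14 tested, 6 rose and 3 fell in OPC and 7 rose in EC, and 4 differences were higher and 5 lower in OPC (3.4% of all genes were lower). The higher ones were Ctss, Ctsc, Ctsz and Grn, and the lower ones Lamp1, Npc1, Npc2, Lipa and Tpp1. Ctsc, a cathepsin that activates serine proteases, differed by 1.84 (adjusted p = 2.27e-05). Ctsz, a cathepsin abundant in microglia, had 153, 177 and 214 CPM in OPC stroke libraries, against 49.4, 58.7 and 66.1 CPM in OPC controls. EC libraries had 168, 204 and 239 CPM after stroke and 144, 161, 147, 147 and 166 CPM in controls, with no overlap of stroke and control in either table, and the difference was 1.17 ± 0.13 (adjusted p = 1.89e-06). The count of lower differences was 2 without EC control 7, EC control 9 or EC stroke 8 and 3 without OPC control 4, OPC stroke 10, EC stroke 12 or EC stroke 14, and within the EC depth classes it was 0 and 5.

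**Figure D4:**
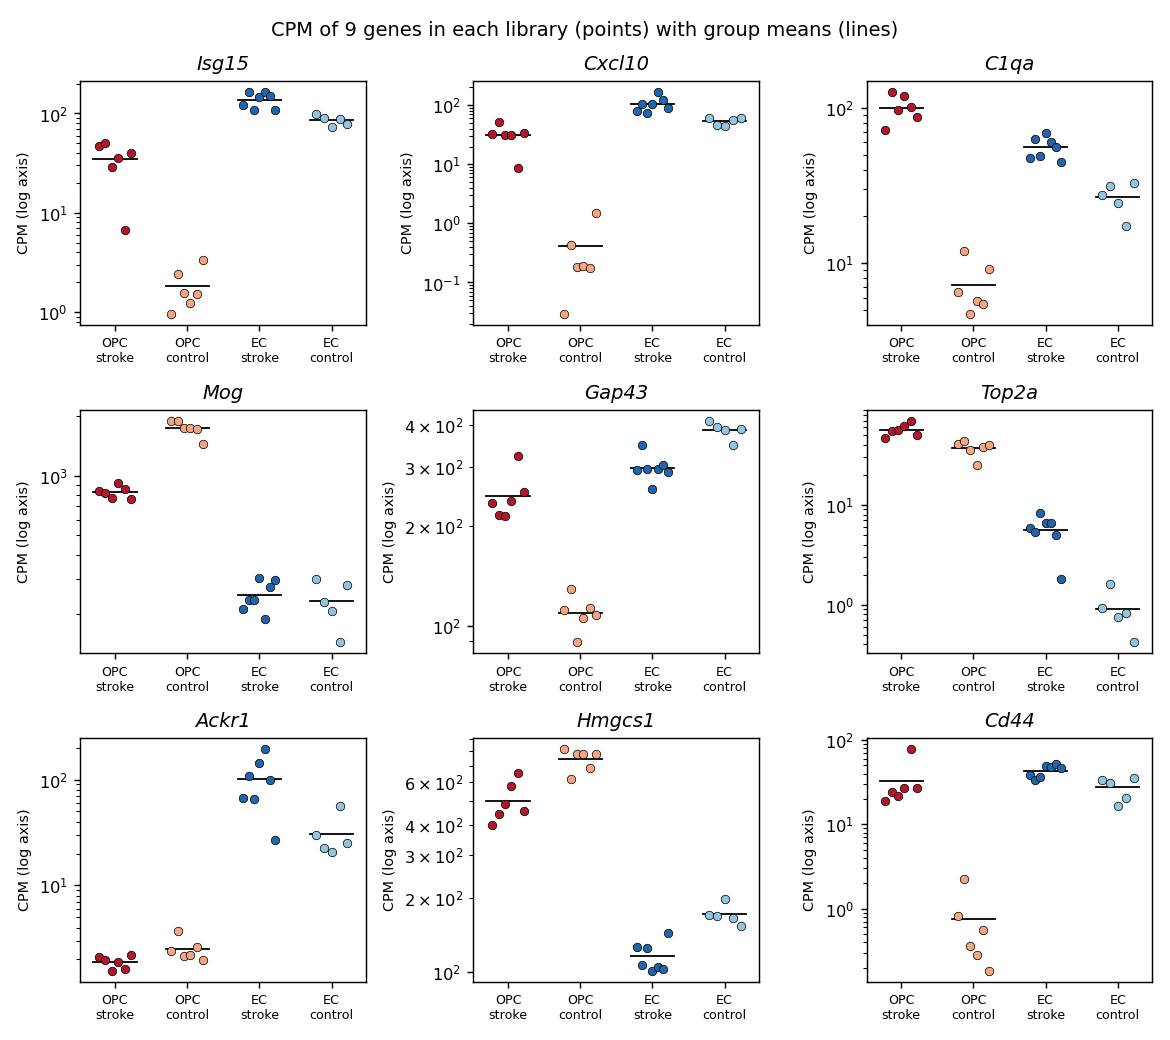
CPM (log axes) of 9 genes in each library, with points for libraries and lines for group means; OPC stroke, OPC control, EC stroke and EC control run from left to right. Isg15, Cxcl10, C1qa and Cd44 differed most between stroke and control in OPC libraries, Top2a and Ackr1 in EC libraries, Mog fell in OPC and was not called in EC, Gap43 moved in opposite directions, and Hmgcs1 was lower after stroke by the same ratio in both.

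Reactive astrocyte genes had higher differences in OPC. Their list shares Cxcl10 with the chemokine and cytokine list and Cd44 with the leukocyte adhesion list. Of 15 tested, 12 rose in OPC and 6 in EC, and 11 differences were higher in OPC, none lower (7 and 8 within the EC depth classes). The share higher was 73.3%, beside 5.44% of all genes, and the median difference was 2.24. Astrocyte markers moved with them: the 12 markers summed to 1434 to 4139 CPM in OPC stroke libraries, 587 to 864 CPM in OPC controls, 3104 to 6943 CPM in EC stroke libraries and 2719 to 5084 CPM in EC controls. Of those 12 markers 8 rose in OPC and none in EC, and 4 differences were higher in OPC (Aqp4, Gfap, Aldh1l1 and Slc4a4). Those 4 are 33.3% of the markers, beside 5.44% of all genes. The median log2 change of the 12 was 1.05 in OPC and 0.31 in EC. The part of astrocyte RNA in these differences was not tested.

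Cd44 (ENSMUSG00000005087, chr2:102811141-102901665), the hyaluronan receptor, had 19.0, 25.7 and 78.2 CPM in OPC stroke libraries, against 0.184, 0.462 and 2.28 CPM in OPC controls. Among EC libraries it stood at 33.8, 47.0 and 51.3 CPM after stroke and 33.7, 30.9, 16.4, 20.4 and 35.8 CPM in controls. The OPC groups were apart by a wide margin, with OPC stroke 8 the highest, and the EC groups overlapped. The difference was 4.79 ± 0.57 (adjusted p = 6.21e-06), and 5.52 without OPC control 6, the highest control. Lcn2, a siderophore-binding protein of acute inflammation, had 0.779, 2.30 and 38.5 CPM in OPC stroke libraries, against 0.0174, 0.0376 and 0.227 CPM in OPC controls. Values in EC were 19.3, 39.3 and 55.5 CPM after stroke and 19.2, 13.7, 10.9, 35.5 and 173 CPM in controls, and EC control 11 was the highest of the 12 EC libraries. The Lcn2 difference was 7.50 ± 1.41 (adjusted p = 0.000937). It was 6.03 without OPC stroke 8, 8.36 without OPC control 11 and 6.16 without EC control 11, each still called, but the limma voom fit gave 5.45 and did not call it (adjusted p = 0.132).

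Tgm1, a transglutaminase that crosslinks proteins, had 8.51, 10.5 and 34.5 CPM in OPC stroke libraries, against 0.0148, 0.0479 and 0.793 CPM in OPC controls. It had 13.0, 26.4 and 39.8 CPM in EC stroke libraries and 18.5, 20.5, 13.5, 16.0 and 23.8 CPM in EC controls. The OPC groups were apart and the EC groups overlapped. The difference for Tgm1 was 5.34 ± 0.70 (adjusted p = 2.14e-05), and 6.24 without OPC control 12. Ptx3, a long pentraxin, differed by 4.83 ± 0.78 (adjusted p = 0.000185), with OPC values of 3.18, 6.86 and 48.3 CPM after stroke and 0.122, 0.187 and 0.553 CPM in controls. Without OPC stroke 8, its highest library, the Ptx3 difference was 3.73. Timp1, which inhibits metalloproteinases, had 1.74, 2.11 and 2.82 CPM in OPC stroke libraries, against 0, 0.174 and 0.469 CPM in OPC controls. Its EC values were 11.4, 18.8 and 23.6 CPM after stroke and 12.9, 9.23, 6.22, 9.22 and 11.2 CPM in controls, with overlap of stroke and control in EC alone, and the difference was 2.71 ± 0.52 (adjusted p = 0.00109).

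Most matrix genes rose in OPC libraries, and for 4 of them the difference passed the test. Of 20 tested, 17 rose in OPC and 7 in EC, and 4 differences were higher in OPC (Fn1, Tnc, Thbs1 and Col5a1; 20.0%, beside 5.44% of all genes), none lower, with a median of 1.16. Within the EC depth classes 3 and 3 were called, and 6 were without EC control 7. Tnc, which encodes tenascin-C, differed by 1.82 (adjusted p = 0.0217). Fibroblast markers moved with the matrix genes: of 10 markers 9 were tested, 6 rose and 1 fell in OPC and 2 rose in EC, with a median log2 change of 2.35 in OPC and 0.67 in EC. Col1a1 averaged 4.81 CPM in OPC stroke libraries, against 0.471 CPM in OPC controls, and 1.99 CPM in EC stroke libraries, against 0.402 CPM in EC controls. Dcn averaged 12.9 CPM in OPC stroke libraries, against 2.25 CPM in OPC controls, and 2.72 CPM in EC stroke libraries, against 1.63 CPM in EC controls. The 10 markers include Pdgfra, which OPCs express, and summed to 885 to 1298 CPM in OPC stroke libraries, 742 to 1310 CPM in OPC controls, 84.9 to 136 CPM in EC stroke libraries and 35.2 to 60.6 CPM in EC controls; Dpep1 was at 0 in both control groups. Their part in the matrix differences was not tested. Fn1, the fibronectin gene, had 6.26, 10.8 and 16.4 CPM in OPC stroke libraries, against 1.10, 1.60 and 2.06 CPM in OPC controls. The EC table gave 57.2, 71.3 and 90.7 CPM after stroke and 45.3, 38.4, 34.2, 43.3 and 60.8 CPM in controls, with overlap of stroke and control in EC alone, and the difference was 2.10 ± 0.28 (adjusted p = 2.09e-05). Nid1, a basement membrane linker, rose by 1.00 in OPC and 0.97 in EC, and its difference was 0.03 (95% interval -0.70 to 0.77); it too was chosen after its values were seen. Col4a6, a basement membrane collagen, had 3.02, 5.44 and 37.8 CPM in OPC stroke libraries, against 0, 0.0381 and 0.569 CPM in OPC controls. The EC values of Col4a6 were 2.09, 2.196 and 3.96 CPM after stroke and 1.40, 1.72, 0.833, 1.63 and 1.87 CPM in controls, with no overlap of stroke and control in either table. Its difference was 5.22 ± 0.96 (adjusted p = 0.000769), 4.11 without OPC stroke 8 and 6.27 without OPC control 6.

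Mmp9 (ENSMUSG00000017737, chr2:164940780-164955850), a gelatinase that cleaves basement membrane, had a difference near that of Lcn2. It had 3.82, 13.6 and 72.0 CPM in OPC stroke libraries, against 0, 0.0697 and 0.335 CPM in OPC controls. EC stroke libraries had 0, 0.773 and 1.95 CPM and EC controls 0.354, 0.737, 0.924, 0.335 and 0.565 CPM. Every OPC stroke library was above all EC libraries, and the EC groups overlapped. The difference was 7.29 ± 1.17 (adjusted p = 0.000177), 6.41 without OPC stroke 10, the highest library, and 8.21 without OPC control 7. Of 16 metalloproteinases and inhibitors tested, 10 rose in OPC and 5 in EC, and 4 differences were higher (Mmp9, Mmp19, Adam8 and Timp1) and 1 lower in OPC. The shares were 25.0% higher and 6.25% lower, beside 5.44% and 3.4% of all genes. The lower one was Mmp14, a membrane-bound metalloproteinase, at -0.92 (adjusted p = 0.0203), which rose in EC by 1.13 and had a change of 0.21 in OPC that did not pass the test. The count of lower members was 2 or 3 without any of 5 single libraries.

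Of the 19 immediate early genes tested, 4 rose and 5 fell in OPC and 1 rose in EC. The difference was higher in OPC for Fos, Junb, Fosl2 and Atf3 and lower for Jund, a call lost without EC control 5 or EC control 7. The shares were 21.1% higher and 5.26% lower, beside 5.44% and 3.4% of all genes. The AP-1 element TGANTCA was in none of the 15 promoter windows of this list, against 8.97% of all windows and 6.41% of those of tested genes. With so few windows and so low a share, none is no result, and no match says only that these letters are absent there. Fos, which pairs with Jun proteins in the AP-1 factor, had 30.1, 35.4 and 91.1 CPM in OPC stroke libraries, against 3.02, 5.45 and 11.3 CPM in OPC controls. Across EC libraries there were 78.3, 90.1 and 141 CPM after stroke and 107, 89.4, 105, 88.5 and 61.6 CPM in controls, and the difference was 2.69 ± 0.39 (adjusted p = 5.21e-05). All OPC stroke libraries were above the controls, and the EC groups overlapped. Atf3, a stress-induced factor of the ATF family, differed by 3.55 ± 0.47 (adjusted p = 2.13e-05), with 3.30, 4.48 and 8.64 CPM in OPC stroke libraries and 0.122, 0.160 and 0.977 CPM in OPC controls. Without OPC control 12 the Atf3 difference was 4.31. Jun had changes of -0.03 in OPC and 0.04 in EC, neither past the threshold, and a difference of -0.07 (95% interval -0.47 to 0.32).

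In the TGF-beta and BMP pathway, ligands bind pairs of receptor kinases that phosphorylate SMAD factors, which induce the Id genes. Of 18 genes tested, 9 rose in OPC and 4 in EC, and 6 differences were higher (Tgfb1, Tgfb2, Tgfbr2, Id1, Id2 and Id3) and 1 lower in OPC. The shares were 33.3% higher and 5.56% lower, beside 5.44% and 3.4% of all genes. Within the EC depth classes 4 and 1 differences were higher. Among receptors, Tgfbr2 (ENSMUSG00000032440, chr9:116084293-116175360) had 15.6, 26.9 and 35.9 CPM in OPC stroke libraries, against 2.93, 4.02 and 5.80 CPM in OPC controls. It had 68.6, 91.4 and 148 CPM in EC stroke libraries and 64.8, 81.8, 61.9, 61.3 and 76.3 CPM in EC controls. The OPC groups did not overlap and the EC groups did, and the difference was 2.06 ± 0.29 (adjusted p = 3.76e-05). Among targets, Id3, a dominant-negative helix-loop-helix factor that holds back differentiation, had 105, 129 and 352 CPM in OPC stroke libraries, against 28.8, 34.0 and 53.5 CPM in OPC controls. In EC it had 437, 538 and 701 CPM after stroke and 404, 476, 336, 288 and 369 CPM in controls, with overlap of stroke and control in EC alone, and the difference was 1.52 ± 0.32 (adjusted p = 0.00313). The lower difference was the ligand Bmp4, at -0.95 (adjusted p = 0.0259). It rose by 1.14 in EC and had a change of 0.17 in OPC that did not pass the test. Its level in EC was low, 2.81 to 5.92 CPM after stroke and 1.02 to 3.01 CPM in controls, against 175 to 287 CPM in OPC libraries. The Bmp4 call was lost without EC control 7.

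Of 18 angiogenesis genes 16 were tested, and 4 differences were higher (Angpt1, Nrp1, Flt4 and Pgf) and 2 lower in OPC (Adm and Unc5b). The shares were 25.0% higher and 12.5% lower, beside 5.44% and 3.4% of all genes. Nrp1, a coreceptor for VEGF, differed by 1.43 (adjusted p = 0.00254). Angpt1, the activating ligand of the endothelial receptor Tie2, had 5.52, 8.28 and 12.3 CPM in OPC stroke libraries, against 1.11, 1.27 and 1.90 CPM in OPC controls. EC libraries showed 6.02, 8.53 and 10.6 CPM after stroke and 9.48, 5.64, 7.00, 4.18 and 8.33 CPM in controls. The OPC groups were apart, the EC groups overlapped, and the difference was 2.25 ± 0.32 (adjusted p = 4.43e-05). Vegfa, the main growth factor for vessels, had a difference of -0.21 (95% interval -0.69 to 0.26), and Tek, which encodes Tie2, of 0.05 (95% interval -1.003 to 1.10); neither passed the test.

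Myelin genes fell in OPC libraries and had no called change in EC libraries. All 18 listed genes were tested: 17 fell in OPC (8.77% of all genes fell) and none rose, while in EC none was called and their median log2 change was 0.12. The difference was lower in OPC for 11 (61.1%, beside 3.4% of all genes) and higher for none, with a median of -0.88. Among them were Mal, Mog, Aspa, Ermn, Opalin, Cldn11, Mag, Gal3st1, Fa2h and Mobp. Within the EC depth classes 7 and 12 were lower. The mature oligodendrocyte markers share genes with this list, among them Mal, Mog, Aspa, Ermn, Opalin, Cldn11, Mag and Mobp. Their fall in OPC libraries is therefore not a separate observation. In OPC libraries the 12 markers summed to 57549 to 78197 CPM after stroke and 98913 to 113326 CPM in controls, with no overlap. The part of mature oligodendrocyte RNA in the differences was not tested.

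Mal (ENSMUSG00000027375, chr2:127633226-127656695), a proteolipid of the compact myelin membrane, had 742, 1036 and 1098 CPM in OPC stroke libraries, against 2188, 2401 and 2903 CPM in OPC controls. EC libraries had 343, 479 and 634 CPM after stroke and 564, 419, 397, 329 and 618 CPM in controls. All OPC stroke libraries were below all OPC controls, and the EC groups overlapped. The Mal difference was -1.38 ± 0.21 (adjusted p = 7.63e-05). Mog (ENSMUSG00000076439, chr17:37010743-37023398), a glycoprotein on the outer surface of myelin, had 764, 828 and 915 CPM in OPC stroke libraries, against 1448, 1747 and 1899 CPM in OPC controls. The EC values were 189.6, 236 and 304 CPM after stroke and 300.1, 231, 208, 145 and 283 CPM in controls, with overlap of stroke and control in EC alone. Mog fell by 1.07 on the log2 scale in OPC, and the difference was -1.17 ± 0.19 (adjusted p = 0.000232). Ndrg1, a gene of hypoxia and Schwann cell and oligodendrocyte maintenance, had 67.4, 77.9 and 96.1 CPM in OPC stroke libraries, against 113, 153 and 168 CPM in OPC controls. Among EC libraries it stood at 188, 220.1 and 321 CPM after stroke and 212, 239, 182, 158 and 294 CPM in controls, with overlap of stroke and control in EC alone, and the Ndrg1 difference was -1.002 ± 0.20 (adjusted p = 0.00199).

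Genes of the earlier lineage stages were examined next. Of 17 OPC identity genes, all tested, 1 difference was higher in OPC (5.88%, beside 5.44% of all genes) and none lower: Sox5, at 0.50 (adjusted p = 0.0298), with changes of 0.01 in OPC and -0.49 in EC. That call was lost without OPC stroke 10, EC control 7 or EC control 9, and with TMM factors over all 24 libraries (adjusted p = 0.0616). Of 15 genes of differentiating oligodendrocytes tested, out of 16 listed, 4 differences were lower in OPC (Tcf7l2, Bmp4, Rras2 and Ddr1; 26.7%, beside 3.4% of all genes). That count was 1 or 2 when any of 19 single libraries was left out, and 0 and 3 within the EC depth classes. Bmp4 is also on the TGF-beta and BMP list, and Tcf7l2 on the Wnt list. The median difference was -0.01 for the OPC identity genes and -0.23 for the differentiating stage. Pdgfra, the receptor through which OPCs proliferate, had 829, 1174 and 1224 CPM in OPC stroke libraries, against 719, 1065 and 1287 CPM in OPC controls. Its level in EC libraries was at most 5.62 CPM, and the difference was -0.41 (95% interval -1.28 to 0.45). Cspg4, which encodes the NG2 proteoglycan, differed by -0.34 (95% interval -0.90 to 0.22). Olig1, a transcription factor of the lineage, fell by 0.30 on the log2 scale in OPC (adjusted p = 0.00958), and its difference was -0.38 (95% interval -0.87 to 0.12). The differences of Pdgfra, Cspg4 and Olig1 did not pass the test, and these libraries do not separate the values within each interval.

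Most cholesterol synthesis genes fell in OPC libraries and 8 of 21 fell in EC libraries, with 1 called difference among the 21 (4.76%, beside 3.4% of all genes that were lower). Oligodendrocyte lineage cells make cholesterol for myelin, and sterol depletion activates SREBF2, which binds the sterol regulatory element in promoters of the pathway. All 21 listed genes were tested: 15 fell in OPC (8.77% of all genes fell), 13 did not pass the test in EC (2.67% of all genes fell there), and none rose in either. The median log2 change was -0.46 in OPC and -0.40 in EC, and 1 difference passed the test, lower in OPC. The promoter window of Hmgcs1, the first committed enzyme of the pathway, is shown because it was the single one of 15 windows in the list that held the sterol element TCACNCCAC on either strand (capitals; 6.67%, against 1.44% of all 27025 windows), from RefSeq (GRCm38.p6).

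Hmgcs1, chr13:119690101-119690400, plus strand: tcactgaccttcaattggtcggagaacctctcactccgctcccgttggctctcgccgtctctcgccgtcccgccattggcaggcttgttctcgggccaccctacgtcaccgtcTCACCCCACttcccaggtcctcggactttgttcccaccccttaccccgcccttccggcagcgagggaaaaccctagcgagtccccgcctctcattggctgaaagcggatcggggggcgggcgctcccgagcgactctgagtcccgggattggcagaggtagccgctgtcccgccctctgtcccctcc

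Hmgcs1 (ENSMUSG00000093930, chr13:119690379-119708260) had 399, 472 and 652 CPM in OPC stroke libraries, against 615, 781 and 818 CPM in OPC controls. The EC table gave 101, 106 and 145 CPM after stroke and 171, 169, 199, 166 and 154 CPM in controls. The EC groups were apart, and the OPC groups overlapped at 1 stroke library. Hmgcs1 fell by 0.57 on the log2 scale in OPC and by 0.57 in EC, and the 95% interval of the difference was -0.32 to 0.33. Fdft1, squalene synthase, had 120.4, 152 and 179.9 CPM in OPC stroke libraries, against 214, 228 and 245 CPM in OPC controls. Values in EC were 109, 116 and 124 CPM after stroke and 167, 169, 184, 169 and 172 CPM in controls, with no overlap in either table. The difference for Fdft1 was -0.01 (95% interval -0.24 to 0.22). Ebp, a sterol isomerase, was the called member: it fell by 0.58 on the log2 scale in OPC and had a change of 0.00 in EC (adjusted p = 0.999), and the difference was -0.58 ± 0.16 (adjusted p = 0.0219).

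Most cell cycle genes rose in OPC libraries and 7 of 24 rose in EC libraries, and of 6 called differences 5 had the larger ratio in EC. Of the 24, all tested, 18 rose in OPC, 17 did not pass the test in EC, none fell, and 21 gained more CPM in OPC libraries. The difference was lower in OPC for 5 (Top2a, Cdk1, Ccnb1, Ccnb2 and Plk1) and higher for 1 (Ccne1). The shares were 20.8% lower and 4.17% higher, beside 3.4% and 5.44% of all genes. Within the EC depth classes 6 and 2 were lower, and the limma voom fit gave 1. Control levels in EC were low, with 465 counts of Top2a, 210 of Cdk1 and 37 of Cdca5, a gene not on the list, over the 5 EC controls.

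Top2a (ENSMUSG00000020914, chr11:98992943-99024189), the topoisomerase that separates replicated chromosomes, had 47.0, 55.9 and 70.1 CPM in OPC stroke libraries, against 25.1, 38.7 and 43.4 CPM in OPC controls. Across EC libraries there were 1.79, 5.93 and 8.24 CPM after stroke and 0.920, 1.61, 0.755, 0.823 and 0.420 CPM in controls. Stroke and control did not overlap in either table. The ratio of means was 1.53 in OPC and 6.23 in EC, the gain in mean CPM 19.7 in OPC and 4.74 in EC, and the difference -1.99 ± 0.37 (adjusted p = 0.000822). Cdk1, the kinase that drives entry into mitosis, differed by -2.09 ± 0.54 (adjusted p = 0.0136), and Ccnb1, its cyclin partner, by -1.58 ± 0.38 (adjusted p = 0.00797). Pbk, a mitotic kinase, had 48.1, 58.4 and 73.1 CPM in OPC stroke libraries, against 38.5, 52.3 and 75.7 CPM in OPC controls, which overlapped. Its EC values were 0.529, 2.79 and 6.15 CPM after stroke and 0.550, 0.345, 0.339, 0.152 and 0.452 CPM in controls, and the difference was -2.93 ± 0.49 (adjusted p = 0.00027).

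A further 3 mitotic genes that, like Pbk, are not on the list were among the most negative differences. Cdca5, which protects sister chromatid cohesion, differed by -3.41 ± 0.88 (adjusted p = 0.0133), and by -6.11 without EC control 9, the control with the most counts; the controls left were at or near 0, so that value is no bound. Its EC controls had 0, 0, 0, 0.488 and 0.0807 CPM and its EC stroke libraries 0.273, 1.10 and 2.47 CPM. Pimreg, a regulator of the step from metaphase to anaphase, differed by -2.29 ± 0.64 (adjusted p = 0.0233). Kif18b, a kinesin of the spindle, differed by -2.25 ± 0.69 (adjusted p = 0.0391), and the call was lost when any of 15 single libraries was left out. Ccne1, the cyclin of the step into S phase, went the other way: it had 8.76, 9.43 and 9.81 CPM in OPC stroke libraries, against 5.79, 6.75 and 7.26 CPM in OPC controls. EC libraries had 14.3, 19.1 and 24.5 CPM of Ccne1 after stroke and 21.7, 20.0, 31.7, 28.4 and 19.9 CPM in controls, with overlap of stroke and control in EC alone, and the difference was 0.79 ± 0.18 (adjusted p = 0.00517).

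Blood-brain barrier genes had 3 called differences, all lower in OPC. Of 18 blood-brain barrier genes tested, 4 rose in EC, 2 rose and 4 fell in OPC, and the difference was lower in OPC for 3 (Cav1, Ocln and Abcg2; 16.7%, beside 3.4% of all genes) and higher for none, with a median of -0.47. That count was 1 when any of 9 single libraries was left out, and 0 and 4 within the EC depth classes. Endothelial markers moved the same way: their sum in EC libraries averaged 6249 CPM after stroke and 4524 CPM in controls, with overlap. The median log2 change of the tested endothelial markers was 0.42 in EC and 0.04 in OPC, beside 0.31 and -0.2 for the barrier genes. The part of endothelial RNA in the differences of this paragraph was not tested. Ackr1 (ENSMUSG00000037872, chr1:173331886-173333750), a scavenging chemokine receptor of venular endothelium, had 1.56, 1.92 and 2.19 CPM in OPC stroke libraries, against 1.95, 2.30 and 3.73 CPM in OPC controls. In EC it had 27.1, 99.6 and 194 CPM after stroke and 29.98, 22.6, 20.5, 56.0 and 25.2 CPM in controls. EC control 9 and 1 EC stroke library reached into the other group, and the OPC levels were low throughout. Ackr1 rose 3.26-fold in EC means, and the difference was -2.12 ± 0.46 (adjusted p = 0.00398), a call lost in the limma voom fit. Cav1, the coat protein of caveolae, had 201, 233 and 240.4 CPM in OPC stroke libraries, against 242, 256 and 283 CPM in OPC controls. EC libraries showed 175, 251 and 319 CPM after stroke and 181, 187, 125, 129.7 and 188 CPM in controls, with overlap of stroke and control in EC alone, and the Cav1 difference was -0.80 ± 0.17 (adjusted p = 0.0029). Ocln, a tight junction protein, differed by -1.002 ± 0.31 (adjusted p = 0.0407), a call lost without any of 13 single libraries.

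Leukocyte adhesion genes had called differences in both directions. Of 14 listed genes 11 were tested: 6 rose in OPC and 3 in EC, and 5 differences were higher (Itgb2, Cd44, Icam1, Selplg and Vcam1) and 1 lower in OPC, the lower one being Ackr1. The shares were 45.5% higher and 9.09% lower, beside 5.44% and 3.4% of all genes. Icam1, the endothelial ligand of leukocyte integrins, had 9.42, 10.4 and 13.3 CPM in OPC stroke libraries, against 0.755, 1.07 and 2.56 CPM in OPC controls. EC libraries had 43.6, 65.9 and 87.6 CPM after stroke and 39.7, 42.4, 31.0, 72.9 and 43.8 CPM in controls. OPC stroke libraries were all above OPC controls and below all EC libraries, and the EC groups overlapped. The Icam1 difference was 2.44 ± 0.35 (adjusted p = 5.01e-05), while the gain in mean CPM was 9.67 in OPC and 20.2 in EC.

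Of 14 endothelial markers 12 were tested. Egfl7, a secreted factor of vessel tubes, had a called difference, -0.98 (adjusted p = 0.000413), and rose by 0.61 in EC. It was the called member of the list (8.33%, beside 3.4% of all genes that were lower). Cldn5, the main claudin of brain vessels, rose in EC, with 685, 904 and 1182 CPM after stroke and 676, 526, 415, 425 and 763 CPM in controls. OPC libraries had at most 4.74 CPM of Cldn5, and its difference was -0.89 (95% interval -1.84 to 0.06). Pecam1, an adhesion molecule of endothelial junctions, differed by 0.35 (95% interval -0.82 to 1.53), and Flt1, a VEGF receptor, by 0.39 (95% interval -0.26 to 1.03). Among markers of other cells, named after their values were seen, the neuron gene Tubb3 (difference 0.61), the pericyte genes Anpep (-2.40) and Mcam (-0.90), and the fibroblast genes Dcn (1.79) and Lum (3.53) had called differences. Those are 8.33% of the neuron, 16.7% of the pericyte and 22.2% of the fibroblast markers tested. Of all genes, 5.44% were higher and 3.4% lower. Anpep had 94 counts over the EC controls. Lum averaged 0.315 CPM in EC controls and 0.140 CPM in EC stroke libraries, so both ratios rest on few counts. Of 12 neuron markers 7 fell in OPC and 6 in EC, where 8.77% and 2.67% of all genes fell. Of the monocyte and border macrophage list 5 of 11 were tested, and 3 had a higher difference in OPC (60.0%, beside 5.44% of all genes): Ms4a7, Plac8 and Fn1. The matrix list also holds Fn1. Cnn1, with 24 counts over the OPC controls, had the difference 2.75. It was the called member of 5 tested smooth muscle markers (20.0%, beside 5.44% of all genes). Neither of 2 tested lymphocyte markers was called. The count of fibroblast calls was 1 without any of 6 single libraries. The Tubb3 call was lost without any of 8 single libraries and the Cnn1 call without any of 13.

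Opposite changes were found for 26 genes, and the 8 with the smallest p among those of at least 10 CPM in a group are given. Gap43 (ENSMUSG00000047261, chr16:42248442-42340651), a growth cone protein of axons that is also made by glia, had 214, 236 and 324 CPM in OPC stroke libraries, against 89.4, 110.0 and 129 CPM in OPC controls. Among EC libraries it stood at 257, 295 and 348 CPM after stroke and 414, 396, 387, 349 and 389.9 CPM in controls. The stroke libraries were all higher in OPC and all lower in EC. Gap43 rose by 1.17 in OPC and fell by 0.38 on the log2 scale in EC, with a difference of 1.55 ± 0.13 (adjusted p = 1.97e-07). Neuron markers moved with the EC decrease: their sum was 5034 to 6844 CPM in EC stroke libraries and 7609 to 10293 CPM in EC controls, and their part in it was not tested. Astn1, a neuronal adhesion protein, rose by 0.44 in OPC and fell by 0.36 on the log2 scale in EC (difference 0.80 ± 0.12, adjusted p = 6.86e-05). Chrna4, a nicotinic receptor subunit, rose by 0.45 in OPC and fell by 0.56 on the log2 scale in EC (difference 1.00 ± 0.16, adjusted p = 0.000228).

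In the other direction, Efna1 fell in OPC and rose in EC. Efna1, an ephrin ligand of endothelial and other cells, had 14.1, 19.9 and 22.4 CPM in OPC stroke libraries, against 26.8, 29.5 and 34.2 CPM in OPC controls. The EC values were 47.7, 62.0 and 69.9 CPM after stroke and 47.5, 35.9, 35.1, 28.7 and 53.1 CPM in controls, with overlap of stroke and control in EC alone, and the difference was -1.24 ± 0.20 (adjusted p = 0.000151). Leprot, which shares its first exons with the leptin receptor gene, had the difference -0.91 ± 0.13 (adjusted p = 5.21e-05), so its reads may be divided between both genes. Wnk1, a kinase that regulates ion transport, differed by -0.72 ± 0.11 (adjusted p = 9.19e-05) and Gsta4, which detoxifies products of lipid peroxidation, by -1.22 ± 0.20 (adjusted p = 0.000199). Meox1, a homeobox factor, fell by 0.48 on the log2 scale in OPC and rose by 1.42 in EC (difference -1.90 ± 0.30, adjusted p = 0.000165). Meox1 values were 9.61, 17.3 and 20.5 CPM in OPC stroke libraries, against 18.7, 22.9 and 29.3 CPM in OPC controls. EC stroke libraries had 3.61, 9.43 and 12.1 CPM of Meox1 and EC controls 4.24, 2.89, 2.99, 2.67 and 3.63 CPM, and both pairs of groups overlapped.

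Genes that changed alike were sought by interval. Of the 659 genes called in the same direction in both tables, 140 had a 95% interval of the difference within 0.5 of 0 on the log2 scale. Of these, 135 had a mean of at least 10 CPM in each group, and among them the 5 with the largest changes in both tables were Gusb, Entpd1, Efemp2, Hmgcs1 and Fdft1. Gusb, the lysosomal beta-glucuronidase, had 76.6, 85.2 and 94.97 CPM in OPC stroke libraries, against 47.2, 50.3 and 56.4 CPM in OPC controls. The EC table gave 37.97, 53.1 and 68.1 CPM after stroke and 41.9, 32.7, 26.8, 26.4 and 34.3 CPM in controls. The OPC groups were apart and the EC groups overlapped, and the difference was 0.04 (95% interval -0.29 to 0.38). Entpd1, the ectonucleotidase CD39 of microglia and endothelium, differed by 0.07 (95% interval -0.34 to 0.48), with changes of 0.72 in OPC and 0.65 in EC. Efemp2, an elastic fibre protein, differed by -0.08 (95% interval -0.50 to 0.34), with changes of 0.61 in OPC and 0.69 in EC.

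The remaining lists had 0 to 3 called differences each. The share called in either direction was 21.4% for cholesterol efflux and lipid storage, 18.8% for hypoxia and glycolysis, 14.3% for oxidative stress and iron, 14.3% for Wnt and 13.3% for p53 genes, beside 8.84% of all genes. None of 15 unfolded protein and stress genes tested passed in either direction by edgeR, with a median difference of -0.28, and none of 14 Notch genes did, with a median of -0.17. Of 16 hypoxia and glycolysis genes 1 was higher (Ldha, 0.78) and Ndrg1 and Ankrd37 were lower. The hypoxia element ACGTG was in 11 of 14 promoter windows of this list (78.6%). That compares with 21.8% of all windows and 28.0% of those of tested genes. Of 15 p53 genes, Gadd45b was higher (1.63) and Phlda3 lower (-0.78). Of 14 oxidative stress and iron genes tested, Gclm (-0.67) and Fth1 (-0.60) were lower, and of 14 Wnt genes Tcf7l2 (-0.66) and Nkd1 (-1.07). Of 14 genes of cholesterol efflux and lipid storage, Lpl was higher (1.51) and Nr1h3 (-0.62) and Lpcat3 (-0.42) lower. Leaving out single libraries moved these counts: 1 lower hypoxia difference without any of 6 libraries and 2 or 3 higher ones without any of 12, 1 lower Wnt difference without any of 11, 4 lower oxidative stress differences without EC stroke 2 and 1 without EC control 9, and 0 or 1 lower efflux difference without any of 18. The Nr1h3 call was also lost with scaling by library totals (adjusted p = 0.0547).

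Ttr (ENSMUSG00000061808, chr18:20665280-20674321), the transthyretin of the choroid plexus, had the most negative difference among the genes selected by size, -6.22 ± 1.63 (adjusted p = 0.0156). It had 0.216, 0.772 and 2.41 CPM in OPC stroke libraries, against 0.289, 4.69 and 250.2 CPM in OPC controls. Across EC libraries there were 2.10, 4.59 and 13.4 CPM after stroke and 3.47, 9.74, 1.37, 1.75 and 4.86 CPM in controls, with overlap in both tables. OPC control 11 was far above the other 5 OPC controls, and without it the difference was -2.87 with an adjusted p of 0.115. Tmem212, an ependymal marker, was the other called member of the 7 tested ependymal and choroid plexus markers, at -1.35. Together they are 28.6% of those tested, beside 3.4% of all genes that were lower. The count of called members ran from 1 without OPC control 11 to 5 without OPC stroke 2 or EC control 11, and the summed level of the list was 11.4 to 19.6 CPM in OPC stroke libraries, 16.5 to 281 CPM in OPC controls, 236 to 418 CPM in EC stroke libraries and 104 to 289 CPM in EC controls.

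**Figure D5:**
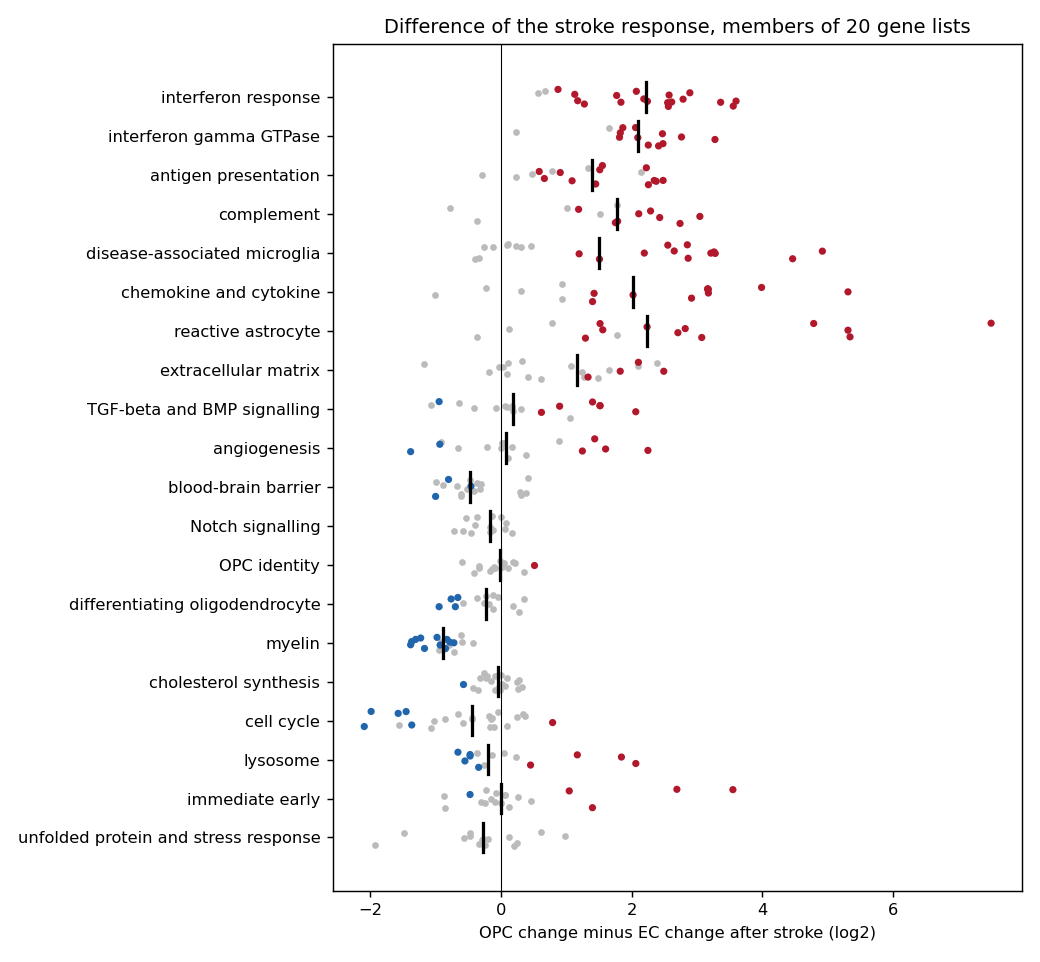
The difference in response (OPC change minus EC change, log2) for each tested member of 20 gene lists, with points for genes and black bars for list medians; red marks differences called higher in OPC, blue those called lower and grey those not called. Immune and reactive astrocyte lists lie to the right of 0, myelin genes lie to the left, and cholesterol synthesis, Notch and OPC identity genes lie close to 0.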

How the data were processed

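RNA was amplified with the SMART-Seq v4 kit, per the labels' protocols; that kit does not mark strand, so overlapping and antisense genes cannot be told apart. Whole-number gene counts were deposited by the authors, 1 table per cell type; the submitters' processing notes name GRCm38, STAR, HTSeq and bcl2fastq 2.20, while library names contain "hisat". Gene positions are from GENCODE on GRCm38. Genes passing edgeR's filter in both tables were fitted over 24 libraries with TMM factors within each table (edgeR 4.0.16, R 4.3.3), testing the OPC change minus the EC change; each table's own change came from its own fit, so the difference need not equal their subtraction. Errors beside differences are standard errors. DESeq2 1.42.0, limma 3.58.1, other scalings, filters and leaving out libraries were alternatives. The members, lists and naming rule were chosen with earlier results of these data known. The rule took the 10 largest differences each way among genes of 10 CPM or more, up to 8 opposite changes, up to 2 called members by p of each pathway list, 3 markers of each cell type and 5 genes that changed alike. Genes outside the rule were picked with their values in view. The other libraries of the series were not used here.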

Additional observations from a re-analysis of the deposited data

Results flagged for a closer look

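Of 356 groups of 5 to 7 libraries checked by gap, over the named genes and summed lists, 46 had a library far from the others by Dixon's criterion. Independent values from a normal distribution meet it in about 1 in 20 groups. The CPM were checked without logs and the groups share libraries, so the 46 cannot be set against that rate. OPC stroke 8 was the library far from its group 18 times. EC control 11 was far below its group with 3.13 CPM of Cybb. OPC stroke 8 was far above its group with 34.5 CPM of Tgm1, 48.3 CPM of Ptx3, 37.8 CPM of Col4a6, 38.5 CPM of Lcn2, 324 CPM of Gap43, 15.9 CPM of Gsta4, 352 CPM of Id3, 8.64 CPM of Atf3, 91.1 CPM of Fos, 78.2 CPM of Cd44, 78.9 CPM of Ebp, 636 CPM of Ldha, 106 CPM of Gclm, 46.8 CPM of Efemp2, 4139 CPM of the summed astrocyte genes and 5133 CPM of the summed reactive astrocyte genes. OPC control 6 was far above its group with 0.553 CPM of Ptx3, 3.73 CPM of Ackr1, 36.5 CPM of Cdk1, 2.28 CPM of Cd44 and 561 CPM of the summed reactive astrocyte genes. OPC control 11 was far above its group with 0.227 CPM of Lcn2, 250.0 CPM of Ttr and 281 CPM of the summed ependymal and choroid plexus genes. EC control 11 was far above its group with 173 CPM of Lcn2 and 2.34 CPM of Tnc. EC stroke 14 was far above its group with 120.0 CPM of Nkd1, and OPC stroke 2 with 57.8 CPM of Ctsc. OPC control 12 was far above its group with 1.47 CPM of Cxcl10, 2.75 CPM of Psmb9, 0.977 CPM of Atf3, 4.74 CPM of Cldn5, 1.40 CPM of Pecam1, 11.9 CPM of Nrp1 and 1124 CPM of the summed neuron genes. OPC stroke 10 was far above its group with 72.0 CPM of Mmp9, 3.00 CPM of Cldn5 and 2.03 CPM of Pecam1. OPC control 7 was far above its group with 0.335 CPM of Mmp9. EC control 9 was far above its group with 56.0 CPM of Ackr1, 0.488 CPM of Cdca5 and 1.08 CPM of Cdk1. OPC stroke 8 was far below its group with 829 CPM of Pdgfra and 53.5 CPM of Nkd1. OPC control 12 was far below its group with 175 CPM of Bmp4.

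Of the 79 genes taken by the naming rule, 68 had a called difference (edgeR quasi-likelihood test). The rule took these 68 because they were called, so their number follows from the rule and is no result. The 11 not called are the cell type markers and the genes that changed alike. The log2 differences higher in OPC began with 7.50 for Lcn2, 7.29 for Mmp9, 5.87 for Oas1g, 5.45 for Apol9b, 5.44 for Cybb, 5.34 for Tgm1, 5.31 for Cxcl10, 5.22 for Col4a6, 4.92 for Ch25h, 4.83 for Ptx3, 4.79 for Cd44 and 4.46 for Cst7. Next came 3.55 for Isg15, 3.55 for Atf3, 3.17 for Ccl2, 3.04 for C4b, 2.74 for C1qa, 2.71 for Timp1, 2.69 for Fos, 2.57 for Ifih1, 2.48 for Psmb9, 2.44 for Icam1, 2.34 for H2-Q4 and 2.25 for Angpt1. After these were 2.25 for Gbp7, 2.10 for Fn1, 2.06 for Tgfbr2, 1.84 for Ctsc, 1.82 for Tnc, 1.81 for Irgm1, 1.63 for Gadd45b, 1.55 for Gap43, 1.52 for Id3, 1.51 for Lpl, 1.43 for Nrp1 and 1.17 for Ctsz. The last were 1.00 for Chrna4, 0.80 for Astn1, 0.79 for Ccne1, 0.78 for Ldha and 0.50 for Sox5. Lcn2, Mmp9, Oas1g, Apol9b, Cybb, Col4a6 and Ch25h had very low levels in OPC controls, so the size of their log2 differences is uncertain. Those lower in OPC began with -6.22 for Ttr, -3.41 for Cdca5, -2.93 for Pbk, -2.29 for Pimreg, -2.25 for Kif18b, -2.12 for Ackr1, -2.09 for Cdk1, -1.99 for Top2a, -1.90 for Meox1, -1.58 for Ccnb1, -1.38 for Mal and -1.24 for Efna1. Among the lower ones next came -1.22 for Gsta4, -1.17 for Mog, -1.07 for Nkd1, -1.0 for Ocln, -1.0 for Ndrg1, -0.95 for Bmp4, -0.91 for Leprot, -0.80 for Cav1, -0.78 for Phlda3, -0.72 for Wnk1, -0.67 for Gclm and -0.66 for Tcf7l2. The lower ones closed with -0.62 for Nr1h3, -0.60 for Fth1 and -0.58 for Ebp.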

How the results depend on the processing

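None of the 68 called genes that the naming rule took changed sign under the alternatives tried. Of its 11 genes not called, 7 did: Cldn5 was at 0.0016 with library number as a block, Pecam1 at -0.191 without OPC stroke 10, and Gusb, Entpd1, Efemp2, Hmgcs1 and Fdft1, which changed alike in both tables, ran from -0.295 to 0.385 in all. The 68 were taken because they were called in the same counts, and the alike genes because their difference was small. Kept and changed signs therefore follow largely from the rule and are no separate result. Of the 68, 49 kept the call with library number as a block, 53 and 60 with the EC libraries up to 6 and above 6 alone, 58 with limma voom, 63 without the filter on low counts, 64 with separate fits, 67 with DESeq2, 67 with scaling by library totals, 67 with TMM over all 24 libraries, 62 to 68 without single libraries and 68 with DESeq2's size factors or the depth class as a covariate; the stricter filter kept 66 of them in the test, all called. The calls lost with limma voom were Lcn2, Ackr1, Ccnb1, Cdk1, Ttr, Pimreg, Kif18b, Ocln, Bmp4 and Tcf7l2. Called differences numbered 1575 at first, 316 (263 higher, 53 lower) with library number as a replicate block, 638 (474 higher, 164 lower) with the EC libraries up to 6 alone, 2013 by DESeq2 (925 lower) and 1423 by limma voom. The median difference over all genes was -0.069 with TMM over all 24 libraries, where higher and lower calls numbered 830 and 833, and 0.034 with scaling by library totals, which gave 1217 higher of 1705 (71.4%), with the median of all genes at 0.106 in OPC and 0.102 in EC.

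Genes changed within EC numbered 868 without the filter on low counts, 2740 by DESeq2 and 0 in either EC depth class alone. Without single libraries, called differences ran from 1209 to 1836 (811 to 1117 higher, 398 to 775 lower), OPC changes from 3040 to 3936 and EC changes from 138 to 1493. The Ttr call ended without OPC control 11, the Fth1 call without EC control 9, the Bmp4 call without EC control 7, the Nr1h3 call without any of 9 libraries, the Tcf7l2 call without any of 12, the Kif18b call without any of 15 and the Ocln call without any of 13. The numbers do not pair the samples: same-numbered OPC and EC libraries had correlations from -0.209 to 0.198, 5 numbers join opposite conditions, and no library correlated best with its own number. The cause of these shifts was not tested, and fewer libraries enter where some are left out. Depth limits the scarce genes of each table, such as OPC genes in EC libraries and endothelial genes in OPC libraries.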
